A study of Mus musculus with 8 samples.

Results

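The genes described here are 10 regulators of the Ras GTPase switch, followed in transformed mouse pro-B cells from which the transcription factor EBF1 was depleted by a degrader. They were chosen by name as 6 exchange factors (Rasgrp1, Rasgrp2, Rasgrp3, Rasgrp4, Sos1 and Sos2) and 4 GTPase-activating proteins (Rasa1, Rasa2, Rasa3 and Nf1), and they are 10 of the 47937 gene IDs in the count tables. Ras proteins signal while bound to GTP. Exchange factors load them with GTP, and GTPase-activating proteins (GAPs) make them hydrolyse it, so the active amount depends on both. RasGRP proteins are recruited to membranes by diacylglycerol, which phospholipase C makes below antigen receptors, whereas SOS proteins are brought to activated receptors by the adaptor GRB2.

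The treated libraries came from Abelson murine leukaemia virus (A-MuLV) transformed pro-B cells treated with 0.5 µM dTAG-13 for 6 h (4 libraries), and their controls from the same cells given the solvent DMSO (4 libraries). The cells of both groups carry EBF1 fused to a dTAG degron, and dTAG-13 recruits a ubiquitin ligase to that degron. The titles of the DMSO libraries give 0 h whereas their treatment label gives 6 h, so the time in solvent is uncertain. No library of untagged cells given the compound was analysed here, so loss of EBF1 and other effects of dTAG-13 cannot be told apart. A-MuLV brings in the v-Abl kinase, which signals without a receptor, and this limits the cells as a model of Ras control in normal pro-B cells. The labels do not say whether the 4 libraries of a group came from separate cultures, so p-values measure the spread between these libraries, which may be technical.

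Total RNA depleted of ribosomal RNA was sequenced, and each gene has an exonic count and a count over its whole span. Exonic reads were 33170855 to 38999496 per dTAG-13 library and 28982316 to 38170273 per DMSO library. Intronic reads, the whole-gene count minus the exon count, made up 20.4% to 27.3% of reads in dTAG-13 libraries and 22.2% to 26.1% in DMSO libraries. The genes Gm26917 and Gm42418, which overlap ribosomal RNA repeats, took 25.7% to 28.4% of exonic reads in dTAG-13 libraries and 26.2% to 29.3% in DMSO libraries. Ebf1 RNA was at 723 to 816 CPM (counts scaled to library size) in dTAG-13 libraries and 608 to 639 CPM in DMSO libraries; the degrader acts on the protein, so this RNA does not measure the depletion. All 8 pro-B markers were detected, with summed levels of 1262 to 1333 CPM in dTAG-13 libraries and 2074 to 2122 CPM in DMSO libraries. Of 24 markers of 6 other cell types, 16 had no exonic read in any library, among them all 6 T-cell and all 3 mast-cell markers. The summed level of the 6 myeloid markers was 0.485 to 1.12 CPM in dTAG-13 libraries and 0.162 to 0.449 CPM in DMSO libraries. That of the 3 megakaryocyte markers was 0.761 to 1.46 CPM in dTAG-13 libraries and 1.04 to 1.86 CPM in DMSO libraries. Exonic CPM were scaled to the exonic reads of tested genes, and intronic CPM to the intronic reads of tested genes. CPM values are shares of a library's reads of that class, so exonic and intronic CPM cannot be compared in size. In bulk RNA, fewer cells of a type and less RNA per cell cannot be told apart.

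Promoter windows of the 2 members with the largest changes are shown first, since these are the genes whose RNA moved most. They are RefSeq windows on GRCm38.p6 from 250 bases before to 50 bases after an annotated start, printed in the direction of transcription. Rasgrp1 has the window chr2:117342828-117343127 on the minus strand. Rasgrp2 has an upstream window, chr19:6399625-6399924, and a downstream window, chr19:6401455-6401754, both on the plus strand. Capitals mark CCCNNGGG, the core of the EBF1 recognition motif, which reads the same on both strands.
Rasgrp1: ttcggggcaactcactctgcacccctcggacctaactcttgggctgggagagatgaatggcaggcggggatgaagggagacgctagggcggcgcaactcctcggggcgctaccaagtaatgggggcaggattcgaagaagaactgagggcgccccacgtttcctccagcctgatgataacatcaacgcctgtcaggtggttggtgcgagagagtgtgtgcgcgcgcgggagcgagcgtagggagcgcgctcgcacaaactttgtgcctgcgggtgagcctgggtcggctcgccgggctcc
Rasgrp2 upstream: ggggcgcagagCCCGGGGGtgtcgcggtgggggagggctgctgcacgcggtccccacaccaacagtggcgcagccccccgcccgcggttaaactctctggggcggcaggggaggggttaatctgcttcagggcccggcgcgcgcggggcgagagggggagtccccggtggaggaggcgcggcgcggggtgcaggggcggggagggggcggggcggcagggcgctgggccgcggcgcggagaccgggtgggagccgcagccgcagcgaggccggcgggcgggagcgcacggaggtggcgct
Rasgrp2 downstream: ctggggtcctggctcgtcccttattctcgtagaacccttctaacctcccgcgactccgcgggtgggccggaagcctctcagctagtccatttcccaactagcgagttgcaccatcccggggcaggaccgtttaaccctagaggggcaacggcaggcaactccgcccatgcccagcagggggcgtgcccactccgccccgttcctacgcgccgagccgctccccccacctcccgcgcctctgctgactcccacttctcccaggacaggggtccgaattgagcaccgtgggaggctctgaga

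The upstream window of Rasgrp2 held 1 core (CCCGGGGG), at -239 from the start. The Rasgrp1 window and the downstream Rasgrp2 window held none. Over the 11 windows of 9 members (there was no window for Rasgrp4), 3 held a core, the others being Sos2 (CCCGAGGG at -200) and Nf1 (CCCGTGGG at -28). The core occurred in 4491 of 32851 windows of this length in the table (13.7%). The longer palindrome TCCCNNGGGA, which contains the core, occurred in 297 of them (0.904%) and in none of the 11. These letter matches were not tested for binding.

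Rasgrp1 RNA was higher after dTAG-13, Rasgrp2 RNA was lower, and the GAPs Rasa2, Nf1 and Rasa3 were slightly higher, while Sos1, Sos2 and Rasa1 did not pass the test. Of the 10 genes, 8 had enough reads to be tested; 4 were called higher, 1 lower and 3 not called. The 5 called of 8 stand beside 28.3% called among all 12889 genes tested, 14.3% higher and 14.0% lower. The median exonic log2 fold change was 0.04 over the 8 members and -0.003 over all genes tested. The same 5 members had groups that did not overlap, as did 27.7% of all genes tested. All fold changes here are fitted by edgeR's quasi-likelihood test and p-values are adjusted over all genes by the Benjamini-Hochberg method. The authors' deposited table calls the same 5 members at an adjusted p below 0.05.

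**Figure D1:**
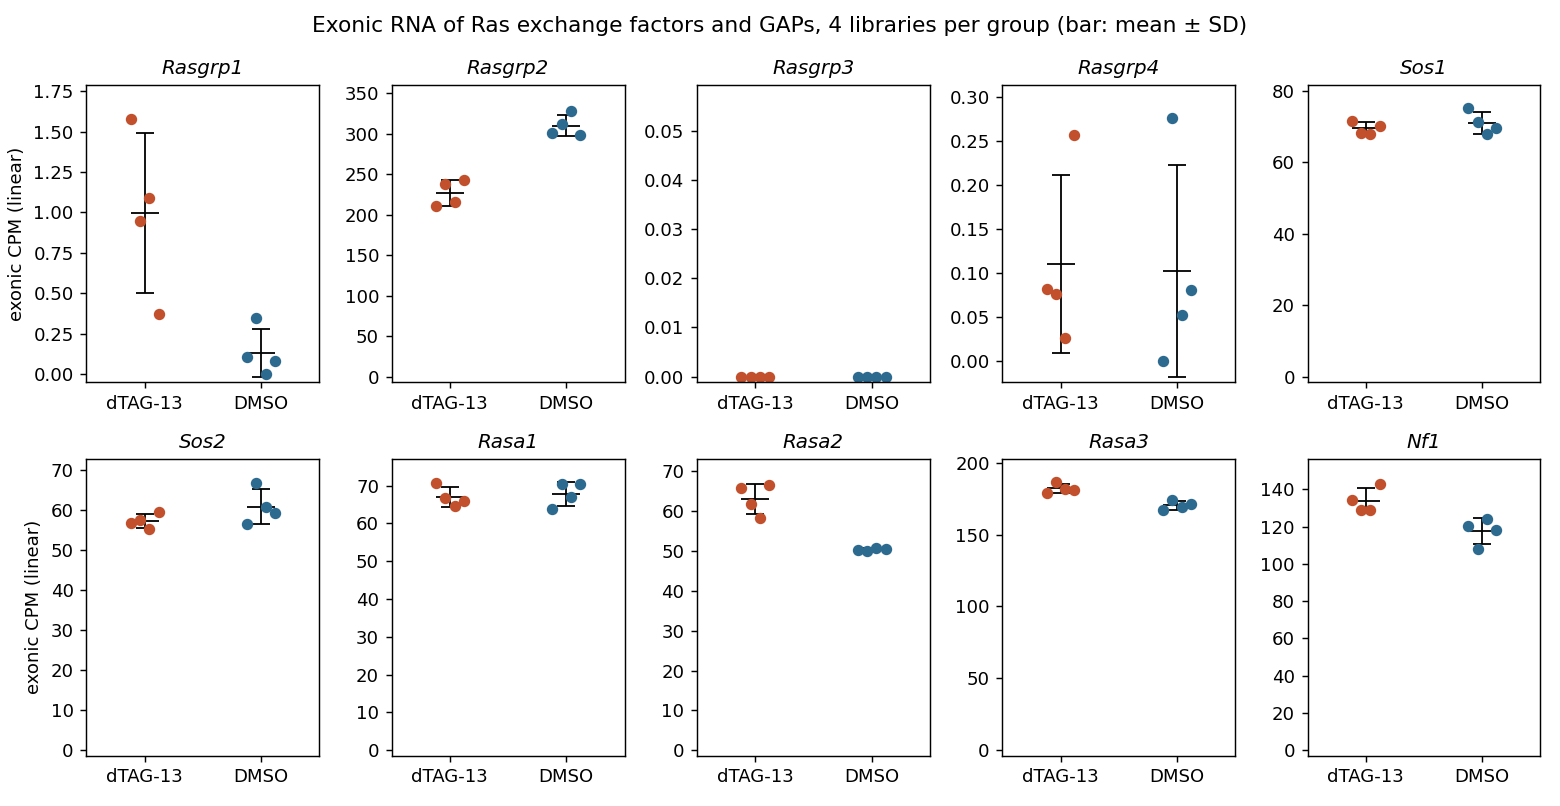
Exonic CPM of the 10 genes in each library on linear axes that differ between panels, dTAG-13 left and DMSO right; bars are the mean and SD of 4 libraries. Rasgrp1 stood at 0.372 to 1.58 CPM in dTAG-13 libraries against 0 to 0.345 CPM in DMSO libraries, and Rasgrp2 was lower in all 4 dTAG-13 libraries.

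RasGRP1 is the diacylglycerol-dependent exchange factor best known from developing T cells. Its gene lies at chr2:117279993-117343001 on the minus strand (GRCm38). Rasgrp1 exonic RNA was at 1.58, 0.944, 1.09 and 0.372 CPM in the dTAG-13 libraries, against 0.104, 0.345, 0 and 0.0811 CPM in the DMSO libraries. The groups did not overlap, but the lowest dTAG-13 library and the highest DMSO library lay close together. These values rest on 150 reads in all dTAG-13 libraries and 16 in all DMSO libraries, a ratio of 8.35 after scaling for depth (95% exact interval 4.98 to 15.0, counting error only). The fitted log2 fold change was 2.99 ± 0.57 (SE, n = 4 each), a 7.92-fold rise (95% interval 3.49 to 17.96, edgeR adjusted p = 0.000186). Rasgrp1 passed the filter on low counts through its dTAG-13 libraries, so its passing is not independent of its rise. Without DMSO replicate 2 the fold was 16.3, and it was 5.72 to 9.55 without any other library.

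Rasgrp1 had intronic reads as well: 1.35, 3.72, 1.31 and 2.23 CPM in dTAG-13 libraries, against 0, 0.834, 0.613 and 0 CPM in DMSO libraries. The groups did not overlap. They rest on 102 reads in dTAG-13 libraries and 15 in DMSO libraries. As in exonic reads, Rasgrp1 passed the filter on low counts through its dTAG-13 libraries. The intronic log2 fold change was 2.57 ± 0.63 (SE, n = 4 each, edgeR adjusted p = 0.00506), and its fold was 5.92. Without DMSO replicate 2 the fold was 8.97, and without DMSO replicate 4 it was 4.40 (edgeR adjusted p = 0.0223). Without dTAG-13 replicate 2 the fold was 4.47, with the highest adjusted p of these fits (edgeR adjusted p = 0.0377). The T-cell markers Cd3d, Cd3e, Cd3g, Cd4, Cd8a and Trbc1 had no exonic read in any of the 8 libraries. Intronic reads of Cd3d were 1 in dTAG-13 libraries and 18 in DMSO libraries, and those of Cd4 were 1 in dTAG-13 libraries and 0 in DMSO libraries. Of the 6 myeloid markers, only Lyz2 could be tested, also at a low level. Lyz2 was at 0.897, 0.485, 0.519 and 0.400 CPM in dTAG-13 libraries, against 0.173, 0.242, 0.365 and 0.162 CPM in DMSO libraries. The groups did not overlap, and Lyz2 was called higher (log2 1.26 ± 0.43, SE, n = 4 each, edgeR adjusted p = 0.0305). Like Rasgrp1, Lyz2 passed the filter on low counts through its dTAG-13 libraries, so its passing is not independent of its rise. Intronic reads of the myeloid marker Itgam were 23 in dTAG-13 libraries and 2 in DMSO libraries. Those of Lyz2 were 0 in dTAG-13 libraries and 4 in DMSO libraries. Exonic reads of Itgam were 7 in dTAG-13 libraries and 0 in DMSO libraries. The other myeloid markers did not rise: Csf1r had 0 exonic reads in dTAG-13 libraries and 3 in DMSO libraries, and Mpo had 6 in each group. Cd14 and S100a8 had no exonic read. The myeloid markers are named outside the rule, after their values were seen, and the part of myeloid cells in the Rasgrp1 result was not tested. Fam98b, a gene beside Rasgrp1 chosen after its values were seen, averaged 35.2 CPM in dTAG-13 libraries and 35.1 CPM in DMSO libraries and was not called (edgeR adjusted p = 0.960).

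The genes whose pattern over the 8 libraries lay closest to that of Rasgrp1, by Euclidean distance of centred log2 CPM among 12889 genes, were Adm, Hvcn1 and Cnn2. Adm, the vasoactive peptide adrenomedullin, was at distance 2.01 and averaged 0.786 CPM in dTAG-13 libraries and 0.167 CPM in DMSO libraries. Hvcn1, a voltage-gated proton channel, was at distance 2.16 and averaged 3.0 CPM in dTAG-13 libraries and 0.881 CPM in DMSO libraries. Cnn2, the actin-binding protein calponin 2, was at distance 2.17 and averaged 4.44 CPM in dTAG-13 libraries and 0.887 CPM in DMSO libraries.

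RasGRP2, also called CalDAG-GEFI, acts mainly on the related GTPase Rap1 and is known from platelets. Its gene lies at chr19:6399340-6415216 on the plus strand. Rasgrp2 exonic RNA was at 210.7, 238, 216 and 243 CPM in dTAG-13 libraries, against 301, 313, 328 and 299 CPM in DMSO libraries. Every dTAG-13 library lay below every DMSO library. Rasgrp2 fell by 0.45 on the log2 scale (SE 0.04, n = 4 each, edgeR adjusted p = 5.4e-09), which is 1.37-fold lower. Its intronic RNA was at 28.7, 32.6, 33.2 and 28.3 CPM in dTAG-13 libraries, against 37.2, 39.1, 37.4 and 34.1 CPM in DMSO libraries. The intronic groups did not overlap, but the log2 fold change of -0.27 ± 0.10 (SE, n = 4 each) missed the threshold (edgeR adjusted p = 0.0635). Intronic reads were 3.94% of Rasgrp2 reads in dTAG-13 libraries and 3.57% in DMSO libraries, against about 41.0% to 51.0% for the SOS genes and the GAPs. Annotated exons cover 12384 of the 15877 bases of the Rasgrp2 gene, which leaves 3493 bases of intron.

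RasGRP3 is the family member described in B cells below the antigen receptor. Rasgrp3 had no exonic read in any library, which allows up to 0.0765 to 0.104 CPM per library (3 reads). Rasgrp4, known from mast cells and other myeloid cells, had 16 exonic reads in dTAG-13 libraries and 13 in DMSO libraries, a scaled ratio of 1.1 (95% exact interval 0.495 to 2.48). A difference in Rasgrp4 was not detectable at this depth, and neither gene was tested. The mast-cell markers Cpa3, Mcpt4 and Fcer1a had no exonic read.

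SOS1 and SOS2 are the widely expressed exchange factors that GRB2 recruits. Sos1 exonic RNA was at 71.6, 68.2, 68.0 and 70.2 CPM in dTAG-13 libraries, against 75.3, 71.2, 68.0 and 69.6 CPM in DMSO libraries. Sos2 was at 56.7, 57.6, 55.2 and 59.5 CPM in dTAG-13 libraries, against 56.4, 66.8, 60.7 and 59.2 CPM in DMSO libraries. Both pairs of groups overlapped. The log2 fold change was -0.03 for Sos1 (95% interval -0.12 to 0.06, edgeR adjusted p = 0.664) and -0.09 for Sos2 (-0.18 to 0.01, edgeR adjusted p = 0.202).

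RASA2 and RASA3 belong to the GAP1 family, whose C2 and PH domains bind membrane lipids; RASA3 also acts on Rap1. Rasa2 exonic RNA was at 65.8, 61.8, 58.4 and 66.4 CPM in dTAG-13 libraries, against 50.4, 50.04, 50.8 and 50.4 CPM in DMSO libraries. The DMSO libraries lay within 1 CPM of each other and below every dTAG-13 library. Rasa2 rose 1.25-fold (log2 0.32 ± 0.05, SE, n = 4 each, edgeR adjusted p = 2.4e-06). Its intronic RNA rose too, at 206, 206, 183 and 207 CPM in dTAG-13 libraries against 172, 156, 163 and 184 CPM in DMSO libraries (log2 0.25 ± 0.07, edgeR adjusted p = 0.00911). Here the groups overlapped, since 1 DMSO library lay just above the lowest dTAG-13 library.

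Rasa3 exonic RNA was at 179, 187, 182 and 181 CPM in dTAG-13 libraries, against 167, 174, 169 and 172 CPM in DMSO libraries. The groups did not overlap, and the rise was 1.07-fold (log2 0.10 ± 0.04, SE, n = 4 each, edgeR adjusted p = 0.0441). The Rasa3 call is the least secure: it was lost with no filter on low counts (edgeR adjusted p = 0.0772), with whole-gene counts (0.175), and when DMSO replicate 1, 3 or 4 or dTAG-13 replicate 2 or 3 was left out (0.123, 0.0958, 0.0754, 0.133 and 0.0707).

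Neurofibromin, the product of Nf1, is the GAP that SPRED proteins bring to the membrane, and RASA1 is the GAP that binds phosphotyrosines through SH2 domains. Nf1 exonic RNA was at 134, 129, 129 and 143 CPM in dTAG-13 libraries, against 121, 108, 124 and 118 CPM in DMSO libraries. The groups did not overlap, and Nf1 rose 1.14-fold (log2 0.18 ± 0.04, SE, n = 4 each, edgeR adjusted p = 0.00189). With whole-gene counts its log2 fold change was 0.11 and the call was lost (edgeR adjusted p = 0.292). Evi2a, chosen after its values were seen, lies inside Nf1 on the opposite strand and averaged 8.29 CPM in dTAG-13 libraries and 3.25 CPM in DMSO libraries; the strand setting of the counting was not given in the sources used here, and its part in the Nf1 value was not tested. Rasa1 was at 70.8, 66.8, 64.6 and 66.0 CPM in dTAG-13 libraries, against 63.8, 70.3, 67.0 and 70.5 CPM in DMSO libraries, and the groups overlapped (log2 -0.02, 95% interval -0.11 to 0.07, edgeR adjusted p = 0.806). Rasa1 and Sos1 also have overlapping genes on the opposite strand: Ccnh averaged 36.4 CPM in dTAG-13 libraries and 35.3 CPM in DMSO libraries, and Arhgef33 averaged 0.128 CPM in dTAG-13 libraries and 0.579 CPM in DMSO libraries. Both were named for their position after their values were seen.

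In intronic reads, 2 of the 8 tested members were called, both higher (Rasgrp1 and Rasa2), beside 16.8% of 11229 genes, 8.26% higher and 8.50% lower. None was called lower by edgeR or by DESeq2, and 1 (Rasgrp2, in edgeR) had an unadjusted p below 0.05. Of the members, 2 had intronic groups that did not overlap (Rasgrp1 and Rasgrp2), beside 19.5% of all genes. All 8 had the same sign in exonic and intronic reads, but the matching share over all genes was not computed. For Rasa1 (exonic and intronic) and Nf1 (intronic) the sign turned in some fits that left out a library. The median intronic log2 fold change was -0.02 over the members and -0.003 over all genes. The authors' deposited table calls the same 2 members in intronic reads.

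**Figure D2:**
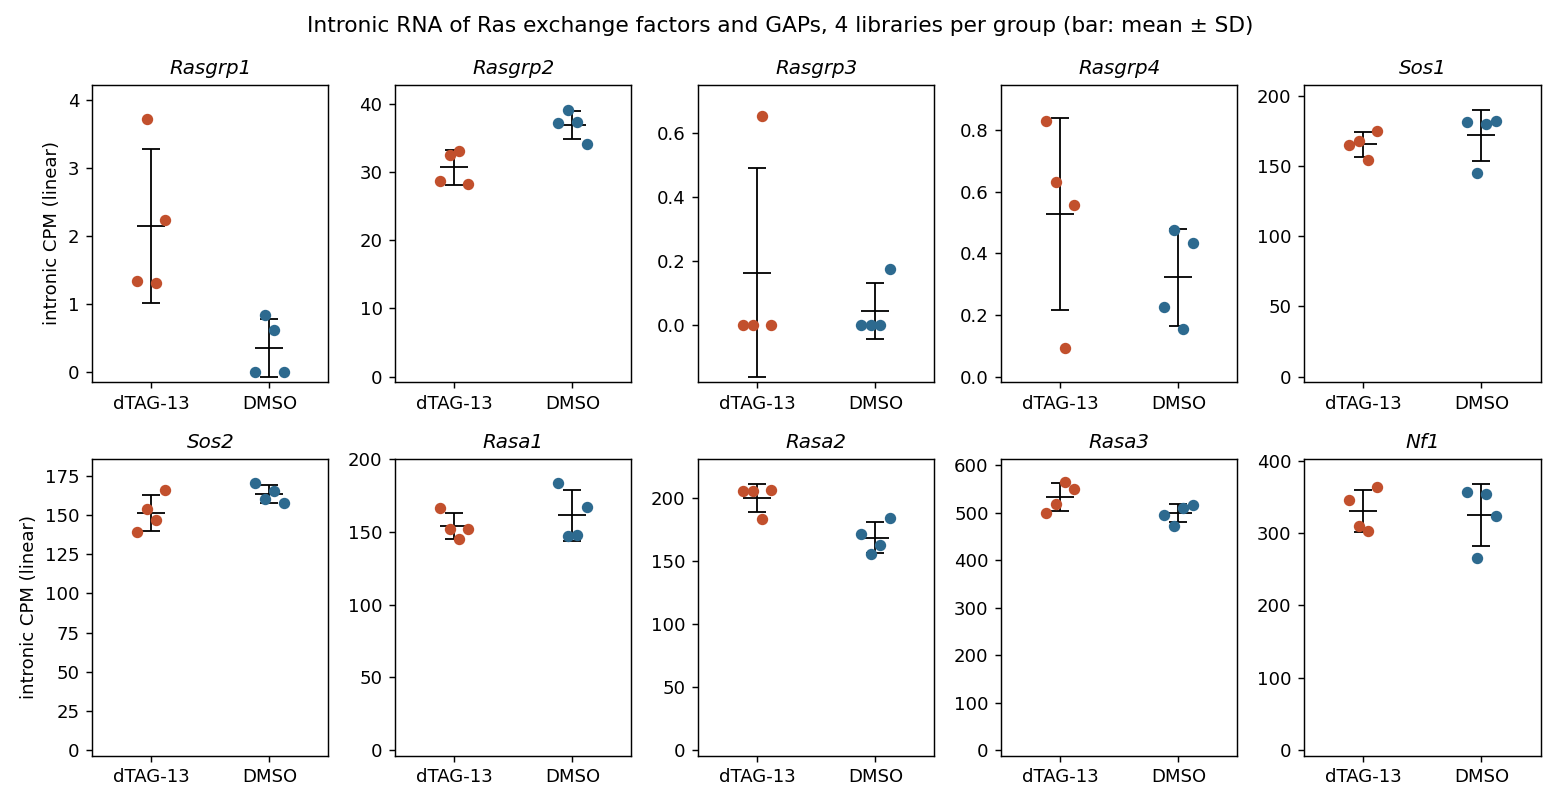
Intronic CPM of the 10 genes in each library on linear axes that differ between panels, dTAG-13 left and DMSO right; bars are the mean and SD of 4 libraries. Rasgrp1 and Rasgrp2 show groups that do not overlap, and Rasgrp3 has a single library above 0 in each group.

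Whether a member's exonic and intronic changes differed was tested as an interaction in 1 model over both read classes. None of the 8 was called by edgeR, beside 0.319% of 10026 genes (32 genes), and 2 had an unadjusted p below 0.05. These were Nf1, whose exonic minus intronic log2 change was 0.16 (edgeR adjusted p = 0.570), and Rasgrp2, with -0.19 (edgeR adjusted p = 0.611).

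**Figure D3:**
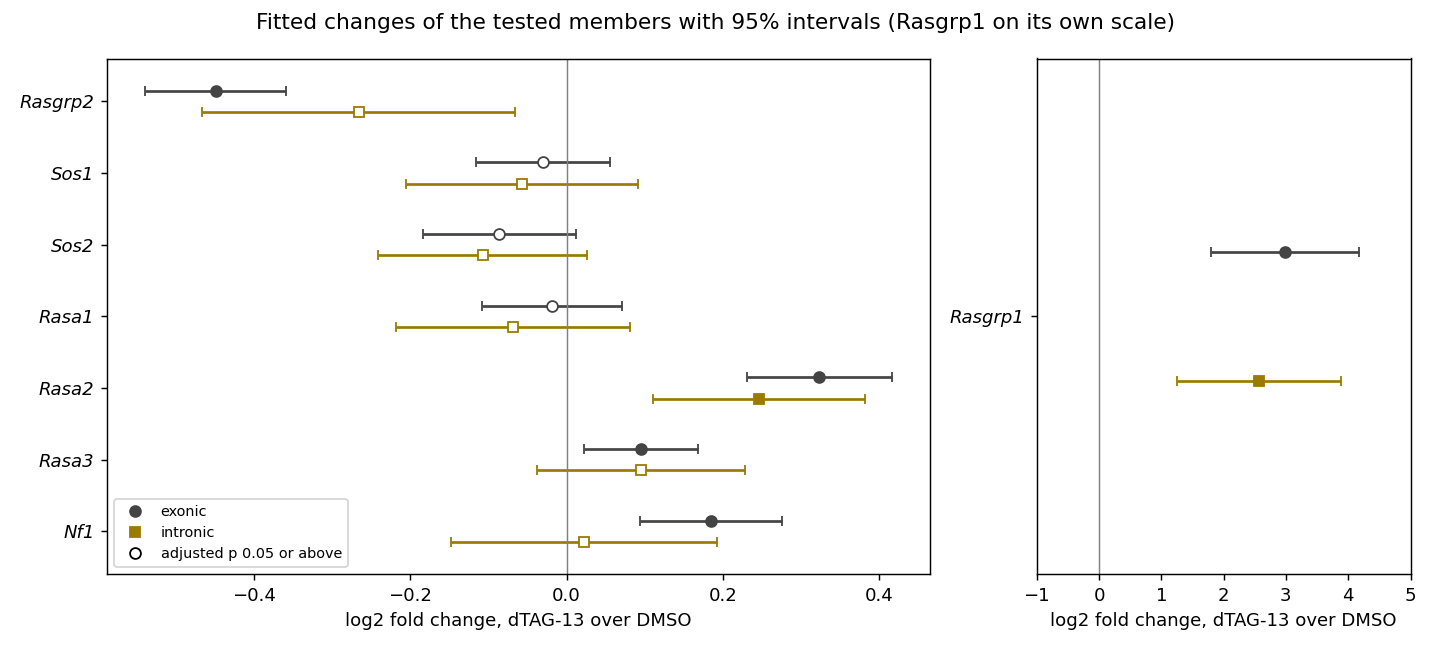
Fitted log2 fold change, dTAG-13 over DMSO, with its 95% interval for the 8 tested members in exonic reads (circles) and intronic reads (squares), filled where called, with Rasgrp1 in a panel of its own scale. The Rasgrp1 estimates are 2.99 exonic and 2.57 intronic, and the others lie between -0.45 and 0.32.

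Per kilobase of annotated exon, Rasa3 had the highest level, at 35.7 ± 0.640 CPM per kb in dTAG-13 libraries and 33.5 ± 0.602 in DMSO libraries (SD, n = 4 each). Rasgrp2 followed at 18.3 ± 1.30 CPM per kb in dTAG-13 libraries and 25.0 ± 1.06 in DMSO libraries. Next came Rasa1 (9.16 in dTAG-13 libraries, 9.28 in DMSO libraries) and Nf1 (8.44 in dTAG-13 libraries, 7.42 in DMSO libraries). Sos2 (6.72 with dTAG-13, 7.14 with DMSO), Sos1 (6.56 with dTAG-13, 6.70 with DMSO) and Rasa2 (3.98 with dTAG-13, 3.18 with DMSO) were lower. Rasgrp1 was far below these, at 0.178 CPM per kb in dTAG-13 libraries and 0.0237 in DMSO libraries. Sos2 and Sos1 overlapped in both groups, Rasa1 and Nf1 overlapped among dTAG-13 libraries, and Nf1 overlapped both Sos2 and Sos1 among DMSO libraries. Gene lengths come from an annotation in which 5 of the 10 members have the same ID version as in the count tables, and Rasgrp3, Sos1, Rasa1, Rasa3 and Nf1 differ. Counting only exons of protein-coding transcripts, a length chosen after the data were seen, turned the order of the highest pair: Rasgrp2 was then at 54.7 CPM per kb in dTAG-13 libraries and 74.7 in DMSO libraries, above Rasa3 at 41.4 in dTAG-13 libraries and 38.7 in DMSO libraries. Rasa2 also moved in the order, to 10.9 CPM per kb in dTAG-13 libraries and 8.67 in DMSO libraries. Its mean was then above that of Sos1, at 8.24 in dTAG-13 libraries and 8.42 in DMSO libraries. Among DMSO libraries the 2 overlapped, at 8.61 to 8.74 for Rasa2 and 8.06 to 8.92 for Sos1. Sos2, at 10.2 in dTAG-13 libraries and 10.8 in DMSO libraries, averaged below Rasa2 with dTAG-13, where they overlapped, and above it with DMSO.

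The summed level of the 6 exchange factors over that of the 4 GAPs was 0.555 ± 0.0198 in dTAG-13 libraries and 0.730 ± 0.0226 in DMSO libraries (SD, n = 4 each). The ranges, 0.535 to 0.578 in dTAG-13 libraries and 0.699 to 0.750 in DMSO libraries, did not overlap. Rasgrp2 made up 57.6% of the exchange-factor sum in dTAG-13 libraries and 64.3% in DMSO libraries. Without Rasgrp2 the ratio was 0.235 in dTAG-13 libraries and 0.260 in DMSO libraries. Despite its rise, Rasgrp1 was 0.567% of the exchange-factor sum in dTAG-13 libraries and 0.0604% in DMSO libraries. Rasa3 made up 62.4% of the GAP sum in dTAG-13 libraries and 62.7% in DMSO libraries, and GAPs outside the 4 were not in that sum. The ratio adds RNA levels of proteins that differ in activity and target, and its size depends on the length used: with protein-coding exons it was 0.941 in dTAG-13 libraries and 1.31 in DMSO libraries.

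**Figure D4:**
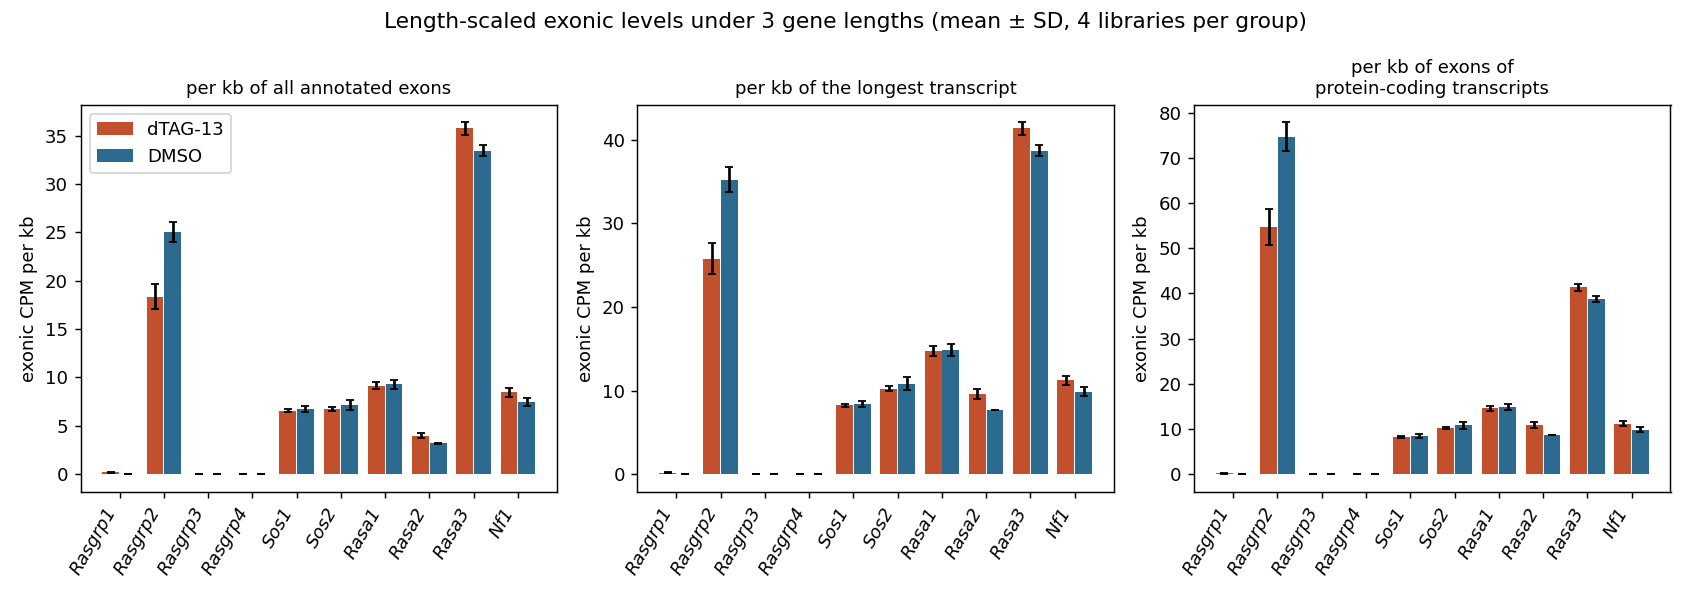
Exonic CPM per kb of the 10 genes under 3 definitions of gene length, 1 per panel on its own linear axis; bars are the mean and error bars the SD of 4 libraries, dTAG-13 left and DMSO right. Rasa3 and Rasgrp2 lead in every panel, and Rasgrp2 stands above Rasa3 only in the panel of protein-coding transcripts.

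The rest of the pathway was followed in 8 lists of 76 genes chosen by role, with earlier results of these data known. The shares called in them describe the lists and are not independent support. Of 61 tested in exonic reads, 13 fell, 21 rose and 27 were not called (55.7% called, median log2 fold change 0.08), beside 28.3% called among all genes tested, 14.0% lower and 14.3% higher, with a median of -0.003. The exonic count of each list below stands beside the same shares, and none was tested against them. In intronic reads, 9 of 58 tested pathway genes fell, 11 rose and 38 were not called (34.5% called). Among all 11229 genes tested in intronic reads, 16.8% were called, 8.50% lower and 8.26% higher. Enzymes that make or remove diacylglycerol, the lipid that recruits RasGRP proteins, had 4 of 7 lower and none higher. Phospholipase C gamma 1 (Plcg1) averaged 69.1 ± 2.11 CPM in dTAG-13 libraries and 105 ± 0.619 CPM in DMSO libraries (SD, n = 4 each, log2 -0.61, edgeR adjusted p = 7.5e-13). The diacylglycerol kinase Dgkd (log2 -0.31) and Plcg2 (-0.26), the main phospholipase C gamma of B cells, fell as well. In intronic reads Plcg2 was not called (log2 0.01, edgeR adjusted p = 0.933), whereas Plcg1 (-0.62) and Dgkd (-0.45) fell.

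Of 9 other exchange factors tested, 2 fell and 2 rose. Rasgef1a averaged 1.24 ± 0.0979 CPM in dTAG-13 libraries and 9.33 ± 1.72 CPM in DMSO libraries (SD, n = 4 each, log2 -2.91, edgeR adjusted p = 6.1e-14). Rapgef5, a Rap exchange factor, rose by 0.43 on the log2 scale, and Rgl1, an exchange factor for Ral, by 0.17; with whole-gene counts the Rgl1 value was -0.02. Of 5 other GAPs, 1 fell and 3 rose. Dab2ip averaged 22.0 ± 1.95 CPM in dTAG-13 libraries and 90.5 ± 2.58 CPM in DMSO libraries (log2 -2.04, edgeR adjusted p = 5.1e-21). Rasal3, a GAP of blood cells, averaged 322 ± 10.97 CPM in dTAG-13 libraries and 202 ± 9.99 CPM in DMSO libraries (log2 0.67, edgeR adjusted p = 2.1e-13), and Rasal1 rose by 0.66.

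Of 5 Ras GTPases tested, 1 was called: Rras2 fell by 0.96 on the log2 scale. Among 10 adaptors upstream of SOS, 1 fell and 4 rose, with log2 changes of 1.05 for Lat, 0.36 for Gab2 and 0.18 for Grb2. Among 7 NF1 partners and ERK inhibitors, 1 fell and 3 rose, with 0.58 for Spry4, -0.31 for Spry2 and 0.20 for Spred2. Of 9 RAF, MEK and ERK kinases and scaffolds, none fell and 3 rose, among them Map2k1 (0.19) and Braf (0.15). The Braf call did not hold in every fit that left out a single library (highest edgeR adjusted p = 0.0683). In intronic reads Braf was not called (log2 0.09, edgeR adjusted p = 0.392). All 9 genes known to follow ERK activity were called, 6 higher and 3 lower, beside the 28.3% called among all genes. Among those higher, Fos averaged 0.877 CPM in dTAG-13 libraries and 0.419 CPM in DMSO libraries. Ier3 was also low, at 1.21 CPM in dTAG-13 libraries and 0.291 CPM in DMSO libraries. It passed the filter on low counts through its dTAG-13 libraries, so its passing is not independent of its rise. The groups overlapped for Fos and Etv4, which are named, like Ier3, after their values were seen. In intronic reads, 2 of 7 tested were higher, 2 lower and 3 not called, beside 16.8% called among all genes. The ERK phosphatase Dusp5 averaged 170 ± 8.45 CPM in dTAG-13 libraries and 84.2 ± 1.81 CPM in DMSO libraries (log2 1.02, edgeR adjusted p = 5.4e-17). The early-response factor Egr1 (-0.66) and the phosphatase Dusp7 (-0.53) fell.

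**Figure D5:**
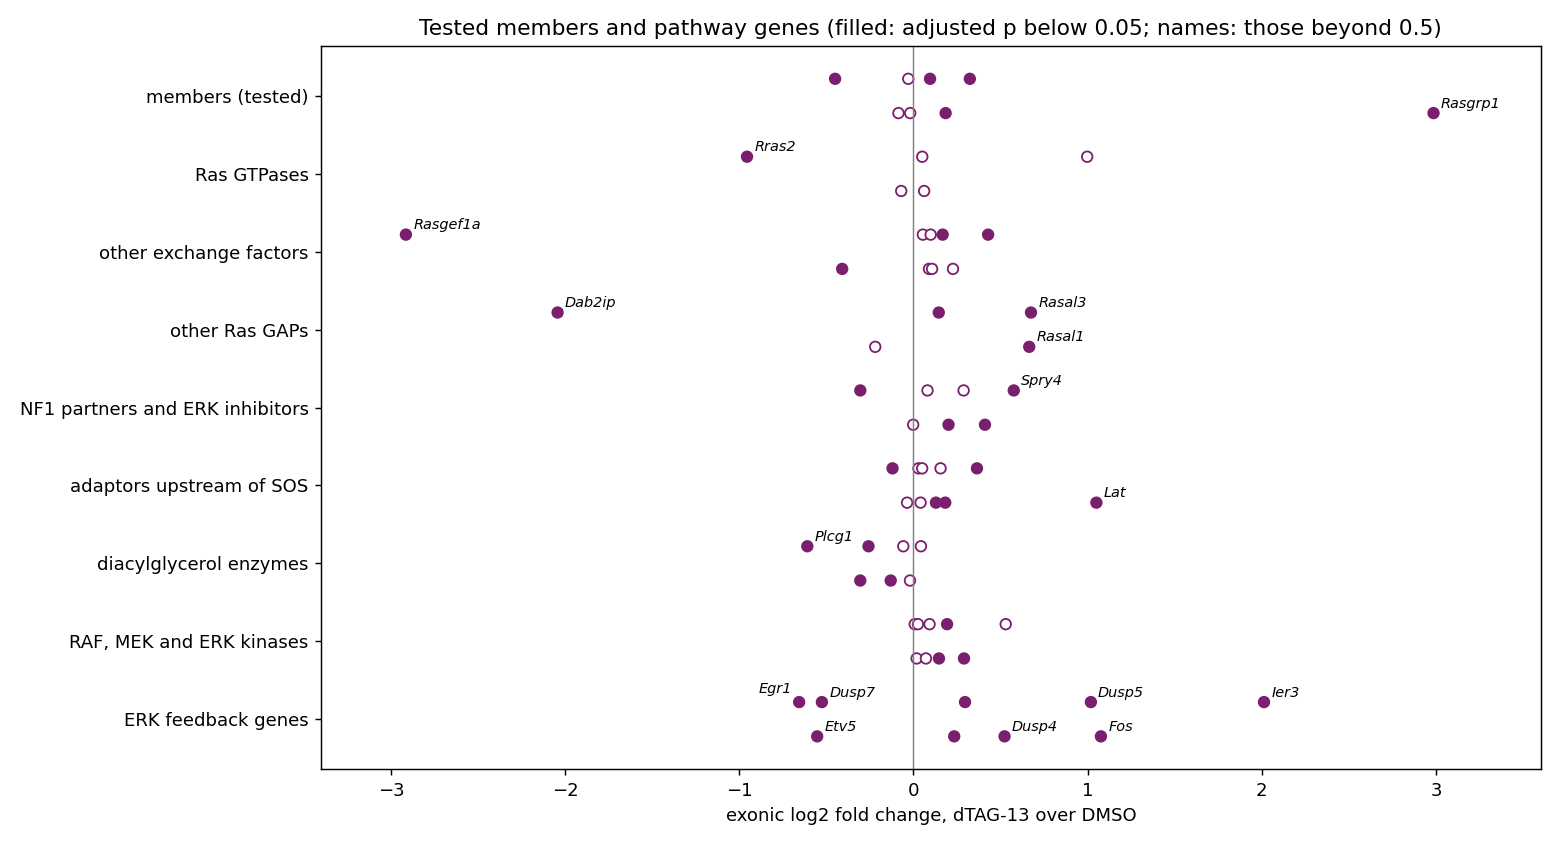
Exonic log2 fold change, dTAG-13 over DMSO, of each tested gene in the 8 lists and among the members, with called genes filled and those beyond 0.5 in size named. Rasgef1a (-2.91) and Dab2ip (-2.04) lie farthest to the left, and Rasgrp1 (2.99) farthest to the right.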

How the data were processed

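Stranded total RNA libraries were sequenced in 8 samples, 4 per group. The authors deposited unnormalized counts for exons and for whole genes. The submitters' processing notes name the aligner STAR 2.7.4a, featureCounts from Subread 2.0.0, and DESeq2. As builds they give mm10 and GRCm38.p4; the annotation release and the strand setting are not given in the sources used here. The authors' deposited table holds log2 fold changes and p-values, per the file headers.

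Intronic counts were computed as whole-gene minus exon counts. Tests used edgeR 4.0.16 under R 4.3.3 (TMM, filterByExpr with minimum count 10 and minimum total 15, quasi-likelihood F test, treatment as the only term, Benjamini-Hochberg threshold 0.05). Exonic and intronic changes were compared in 1 model with the library as a block. Gene lengths and coordinates came from GENCODE vM21 (GRCm38), where 39106 of 47937 IDs, and 5 of the 10 members, had the same version. Alternatives were DESeq2 1.42.0, RLE size factors, no filter, whole-gene counts, no Gm26917 and Gm42418, a replicate block, no library block in the joint model, other gene lengths and leaving out each library. The fits were tested on simulated data.

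The members and lists were chosen with earlier results of these data known. Named genes are the members, up to 3 called genes per list by smallest p, and the 3 genes most like Rasgrp1; 1 gene that this rule names is not reported here. Replicates differed by more than sampling noise, with chi-square per degree of freedom of 4.76 to 13.4.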

Additional observations from a re-analysis of the deposited data

Results flagged for a closer look

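Among 38 groups of 4 libraries examined, 4 had 1 library apart from the others by the ratio of gap to range. Chance gives about 1 in 20 for normally distributed values, and the distribution of these values was not checked. For Rasgrp3 that rate does not hold, since with 3 libraries at 0 any read in the other gives the highest possible ratio. Rasgrp3 intronic reads were at 0.654 CPM in 1 dTAG-13 library and 0 in the other 3, and at 0.174 CPM in 1 DMSO library and 0 in the other 3, from 7 reads in the dTAG-13 library and 2 in the DMSO library. The DMSO value lies below the 0.261 CPM that 3 reads give in that library. Rasa2 intronic RNA was lowest at 183 CPM in 1 dTAG-13 library, the next being 206 CPM. Sos1 intronic RNA was lowest at 145 CPM in 1 DMSO library, the next being 180 CPM.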

How the results depend on the processing

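With whole-gene counts, 2 members were higher (Rasgrp1 and Rasa2), and Rgl1 turned to -0.0207. With no filter, 54 genes were lower and 57 higher in the exonic minus intronic difference, and the Rasa3 difference turned to 0.0036. The exchange factor to GAP ratio was 0.578 (dTAG-13) and 0.766 (DMSO) per kb of longest transcript, and 0.941 (dTAG-13) and 1.31 (DMSO) per kb of protein-coding exon. Leaving out single libraries gave 3 to 4 members higher in exonic reads. For the pathway values that the naming rule selects, exonic and intronic, the call was kept in 309 such fits and lost in 19. Leaving out libraries gave 7 to 12 pathway genes higher in intronic reads, against 11 with all libraries. In the difference it gave 8 to 18 lower and 3 to 15 higher genes. It also turned signs of uncalled values: the difference ranged from -0.74 to 0.76 for Rasgrp1, -0.0223 to 0.10 for Sos1, -0.0305 to 0.0759 for Sos2, -0.0477 to 0.10 for Rasa1 and -0.0279 to 0.0322 for Rasa3; Rasa1 ranged from -0.0470 to 1.1e-05 in exonic and -0.11 to 0.0118 in intronic reads, and Nf1 intronic from -0.0646 to 0.0835. The cause of these shifts was not tested. Same-numbered libraries did not deviate together (correlations -0.0237 to 0.0584). The labels do not say what a shared number means, and these correlations cannot show whether such libraries were handled together. The replicate block gave 1869 lower and 1884 higher exonic genes, against 1808 and 1841 without it, and the same member calls. Depth limits Rasgrp1, Rasgrp3 and Rasgrp4.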
